A study of Mus musculus with 12 samples.

Results

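The D cyclins and their partners decide whether a cell leaves G1 and commits to DNA replication. The 10 genes described here encode the 3 D cyclins (Ccnd1, Ccnd2, Ccnd3), the kinases they activate (Cdk4, Cdk6), inhibitors of these kinases (Cdkn1b, Cdkn2c, Cdkn2d) and pocket proteins that the kinases phosphorylate (Rb1, Rbl1). They were taken by gene symbol from a list of names, and all 10 were found among the 24391 symbols of the count files. All 10 passed the filter on low counts, as did 15958 genes in all.

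The RNA libraries were made from palatal shelves, the tissue from which the secondary palate is built, of E13.5 embryos of the C57BL/6 mouse strain. The front (anterior) and back (posterior) portions gave separate libraries. The 4 groups were anterior palate after tamoxifen treatment (TAM_AP), control anterior palate (con_AP), posterior palate after tamoxifen treatment (TAM_PP) and control posterior palate (con_PP), with 3 libraries each. Tamoxifen binds the oestrogen receptor and, depending on the tissue, blocks or activates it. The study's title names cleft palate as its outcome. The labels state neither the dose, route and time of treatment nor what the controls received, nor whether libraries come from separate embryos or litters, so p-values measure the spread between these libraries.

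In G1, growth factor signalling raises the D cyclins, which bind Cdk4 or Cdk6 and direct them to the pocket proteins. Phosphorylated pocket proteins release E2F transcription factors, which switch on genes of DNA replication. The INK4 inhibitors encoded by Cdkn2c (p18) and Cdkn2d (p19) bind Cdk4 and Cdk6 directly, whereas p27, the product of Cdkn1b, binds cyclin and kinase together and is best known for holding back Cdk2. In the palate, proliferation of the mesenchyme drives the vertical growth of the shelves before they lift and fuse.

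Promoter sequences are shown for 3 genes whose RNA differed with treatment, as examples of windows that hold a motif read by cell cycle regulators: both kinases and a pocket protein gene, all called in both parts of the palate. The RefSeq table for GRCm38.p6 held windows of 300 bases (250 before to 50 after an annotated start) for 7 of the 10 genes, and Ccnd1, Ccnd2 and Rb1 had none. Capitals mark an E2F motif, searched on both strands as TTTCCCGC, TTTCGCGC, TTTGCCGC and TTTGGCGC, or the E-box CACGTG bound by Myc and related factors, which reads the same on both strands. The E2F motif occurred in 2.26% and the E-box in 7.15% of the 32851 windows of the table. The windows, 5′ to 3′ along the gene, lie at chr5:3343643-3343942 (plus strand) for Cdk6, chr10:127063285-127063584 (plus strand) for Cdk4 and chr2:157204485-157204784 (minus strand) for Rbl1.
Cdk6: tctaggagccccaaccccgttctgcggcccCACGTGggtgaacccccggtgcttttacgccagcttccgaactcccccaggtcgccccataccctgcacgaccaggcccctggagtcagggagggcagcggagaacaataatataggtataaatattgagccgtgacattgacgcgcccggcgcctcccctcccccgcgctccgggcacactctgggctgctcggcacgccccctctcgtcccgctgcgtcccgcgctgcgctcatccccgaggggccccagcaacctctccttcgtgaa
Cdk4: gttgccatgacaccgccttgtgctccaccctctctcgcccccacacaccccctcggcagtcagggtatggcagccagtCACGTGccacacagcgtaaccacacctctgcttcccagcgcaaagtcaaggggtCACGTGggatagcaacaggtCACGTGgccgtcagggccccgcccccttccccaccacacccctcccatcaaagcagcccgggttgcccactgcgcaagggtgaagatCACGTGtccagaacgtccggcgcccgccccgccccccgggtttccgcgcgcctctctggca
Rbl1: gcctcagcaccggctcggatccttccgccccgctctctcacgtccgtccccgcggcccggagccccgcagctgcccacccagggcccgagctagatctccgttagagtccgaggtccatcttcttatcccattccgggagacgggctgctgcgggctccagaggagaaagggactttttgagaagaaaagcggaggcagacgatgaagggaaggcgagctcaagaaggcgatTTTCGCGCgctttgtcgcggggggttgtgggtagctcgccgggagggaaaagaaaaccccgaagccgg
The Rbl1 window held 1 E2F motif, which began 18 bases before the annotated start. The Cdk4 window held 4 E-boxes, beginning 172, 118, 98 and 11 bases before the start, and the Cdk6 window held 1, beginning 220 bases before it. Of the other windows, 1 of the 2 of Cdkn2c held an E-box downstream of its start and is not printed, though Cdkn2c was also called in both parts, and those of Ccnd3, Cdkn1b and Cdkn2d held neither motif. A match is a string of letters and not a measured binding site.

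Total counts ran from 39.4 M to 73.0 M per library, TAM_AP replicate 1 being the deepest. Levels are CPM, counts set relative to library size, with sizes scaled by the trimmed mean of M values (TMM), and fold changes come from edgeR's quasi-likelihood test across all genes, with a call where the p adjusted by Benjamini-Hochberg was under 0.05. Region labels held: Shox2, Msx1, Alx1 and Inhba were called higher and Meox2, Tbx22, Barx1 and Mn1 lower in the anterior part, both under tamoxifen and in controls. Palatal mesenchyme markers (9 genes) summed to 11548 to 23182 CPM per library, a sum dominated by collagens. In con_AP, Col1a1, Col1a2 and Col3a1 averaged 3828, 3216 and 3046 CPM, and the others from 70.9 (Osr1) to 936 CPM (Vim). A trend with transcript length followed treatment: the Spearman correlation across 12685 genes between length and a library's deviation from the average library was 0.35 to 0.47 in the 6 tamoxifen libraries and -0.59 to -0.23 in the 6 control libraries. Among the controls it was -0.59 to -0.46 in con_AP and -0.34 to -0.23 in con_PP, so it also divided the controls by region. Since this trend divides the libraries exactly as the treatment does, a change due to treatment and one due to the trend cannot be told apart, and values with the length and GC trend removed are given beside the results.

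**Figure D1:**
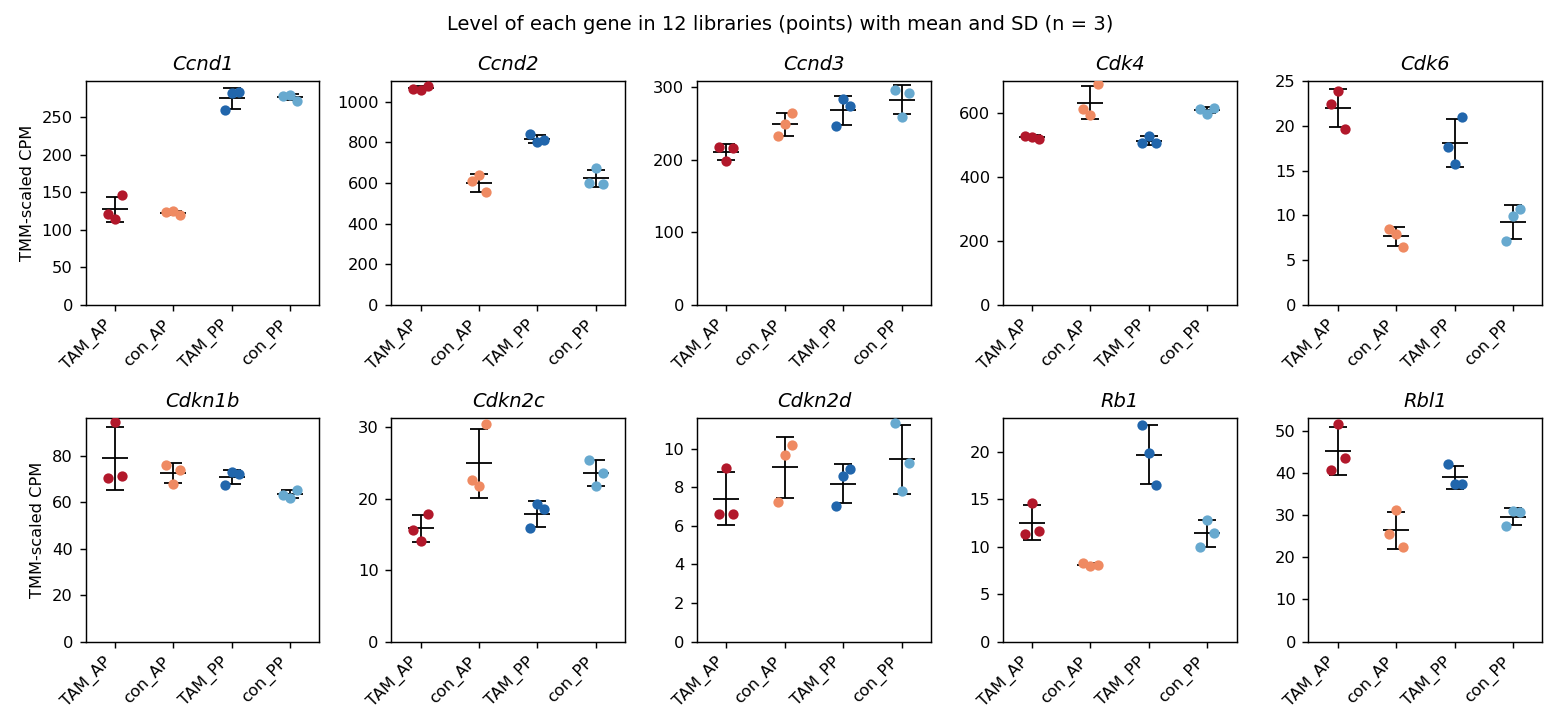
Level of each of the 10 genes in TMM-scaled CPM (vertical axis, from 0) in the 12 libraries. Points are libraries, bars are mean and SD over 3 libraries, and the groups run TAM_AP, con_AP, TAM_PP, con_PP. Ccnd1 divides by region, Cdk6 and Rbl1 by treatment, and Ccnd2 is highest in TAM_AP.

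Among the D cyclins, tamoxifen went with more Ccnd2 in both parts of the palate, with less Ccnd3 in the anterior part, and with no call for Ccnd1. Ccnd2, the D cyclin that is prominent in many embryonic progenitors, stood at 1065, 1060 and 1076 CPM in the TAM_AP libraries, against 610, 640 and 554 CPM in con_AP. In the posterior part it stood at 839, 801 and 812 CPM in TAM_PP, against 600, 672 and 597 CPM in con_PP. The groups did not overlap in either part, and the TAM_AP libraries lay above all 9 others. The fold change was 1.77 in the anterior part (log2 0.83, SE 0.07, adjusted p = 1.3e-06) and 1.31 in the posterior part (log2 0.39, SE 0.07, adjusted p = 0.0017). With the length and GC trend removed, the log2 fold change was 0.34 in the anterior part (adjusted p = 9.7e-05) and 0.08 in the posterior part, where the call was lost (adjusted p = 0.29). The Ccnd2 transcript used for length has 6.33 kb.

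Ccnd3, a D cyclin widely used in differentiating and blood cells, stood at 218, 198 and 216 CPM in TAM_AP, against 233, 249 and 265 CPM in con_AP. In the posterior part the values were 246, 284 and 274 CPM in TAM_PP and 297, 260 and 293 CPM in con_PP. The anterior groups did not overlap, and the posterior groups did. The anterior fall was 1.18-fold (log2 -0.24, SE 0.08, adjusted p = 0.020), and the posterior log2 fold change of -0.08 gave no call (adjusted p = 0.48). The anterior call was lost with the trend removed (log2 -0.02, adjusted p = 0.84) and without con_AP replicate 2, con_AP replicate 3 or TAM_AP replicate 2 (adjusted p = 0.052, 0.082 and 0.065).

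Ccnd1, the D cyclin most closely tied to growth factor and Wnt signals, stood at 121, 114 and 146 CPM in TAM_AP, against 123, 125 and 119 CPM in con_AP. In the posterior part it stood at 259, 283 and 284 CPM in TAM_PP and at 279, 280 and 272 CPM in con_PP. Treated and control libraries overlapped in both parts. The log2 fold change was 0.05 in the anterior part, with a 95% interval of -0.14 to 0.24. In the posterior part it was -0.01, with an interval of -0.20 to 0.18. Both intervals come from the fit that contains the length trend. The adjusted p was 0.62 and 0.96, and 0.75 and 0.67 with the trend removed.

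Per length of transcript, Ccnd2 was the most abundant D cyclin in all 4 groups. Its share of the summed D cyclin level per kb was 65.6 ± 1.52% in TAM_AP and 49.4 ± 2.45% in con_AP, and 47.5 ± 2.14% in TAM_PP and 40.0 ± 2.37% in con_PP (SD, n = 3 each). The summed level itself was 257 ± 7.87 CPM per kb in TAM_AP and 192 ± 5.92 in con_AP, and 272 ± 5.72 in TAM_PP and 246 ± 2.67 in con_PP. Libraries of treated and control tissue did not overlap in either quantity and either part. These shares and sums were not tested, and they contain the length trend. Ccnd1 made up 13.2 ± 1.37% of the sum in TAM_AP and 27.0 ± 0.825% in TAM_PP, and 17.1 ± 0.308% in con_AP and 30.1 ± 0.164% in con_PP.

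**Figure D2:**
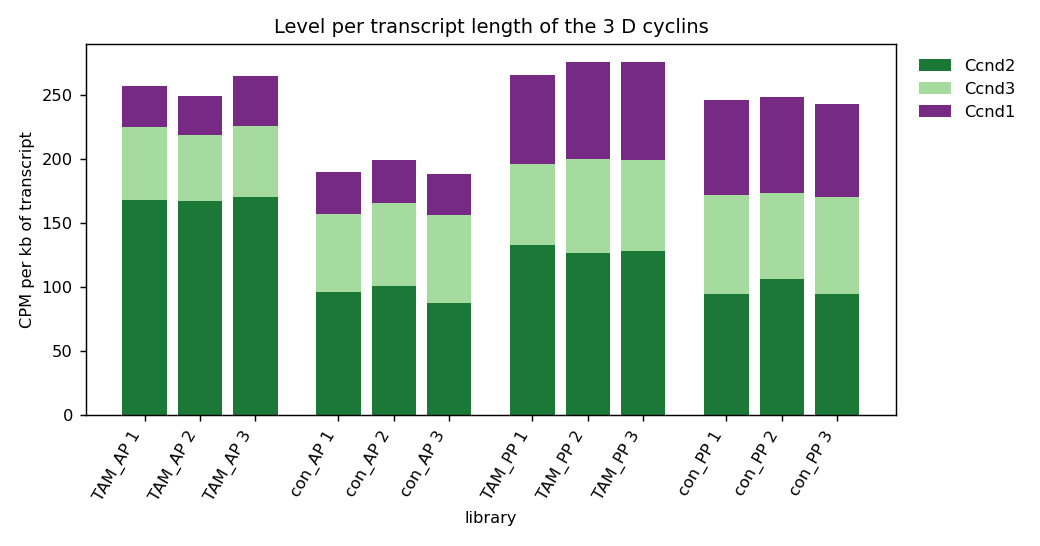
Level of the 3 D cyclins in CPM per kb of transcript (vertical axis, from 0), stacked for each of the 12 libraries in the order TAM_AP, con_AP, TAM_PP, con_PP. Ccnd2 forms the largest part of every bar, the TAM_AP bars reach 249 to 265, the con_AP bars 188 to 199, and the part of Ccnd1 is larger in the posterior bars.

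The kinases were called in opposite directions, though the fall of Cdk4 was no longer called with the length and GC trend removed. Cdk6, the less abundant partner of the D cyclins here, stood at 22.5, 23.9 and 19.7 CPM in TAM_AP, against 8.52, 7.96 and 6.49 CPM in con_AP. TAM_PP libraries had 17.6, 15.7 and 21.0 CPM, against 7.15, 9.98 and 10.7 CPM in con_PP. All 6 tamoxifen libraries lay above all 6 control libraries. Its rise, the largest among the 10 genes in both parts before removal of the trend, was 2.88-fold in the anterior part (log2 1.52, SE 0.16, adjusted p = 2.7e-06) and 1.95-fold in the posterior part (log2 0.97, SE 0.15, adjusted p = 0.00062). Its transcript, of 11.5 kb, is the longest of the set, and with the trend removed the rise was 1.73-fold (adjusted p = 0.00021) and 1.43-fold (adjusted p = 0.011), the posterior value then lying just under the 1.44-fold of Rb1.

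Cdk4, the main G1 kinase in most embryonic tissues, stood at 530, 525 and 519 CPM in TAM_AP, against 611, 595 and 691 CPM in con_AP. The posterior values were 506, 529 and 505 CPM in TAM_PP, against 614, 598 and 615 CPM in con_PP. Here all 6 tamoxifen libraries lay below all 6 control libraries. The fall was 1.21-fold in the anterior part (log2 -0.27, SE 0.07, adjusted p = 0.0043) and 1.19-fold in the posterior part (log2 -0.25, SE 0.07, adjusted p = 0.016). Neither part gave a call with the trend removed, and the log2 values were 0.02 in the anterior part (adjusted p = 0.83), with its sign turned, and -0.10 in the posterior part (adjusted p = 0.20). The posterior call was also lost without con_PP replicate 1, con_PP replicate 3 or TAM_PP replicate 3 (adjusted p = 0.056, 0.059 and 0.053). Per kb, the Cdk4 level exceeded that of Cdk6 135 ± 12.4 times in TAM_AP and 473 ± 108 times in con_AP, and 162 ± 27.0 times in TAM_PP and 380 ± 88.3 times in con_PP. These ratios were not tested, and they contain the length trend. Whether the 4 E-boxes printed for Cdk4 and the 1 printed for Cdk6 bear on these RNA levels was not tested.

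Of the inhibitors, Cdkn2c was lower under tamoxifen in both parts, and Cdkn2d and Cdkn1b gave no call. Cdkn2c (p18) stood at 15.7, 14.1 and 17.9 CPM in TAM_AP, against 22.6, 21.7 and 30.5 CPM in con_AP, and at 15.8, 19.3 and 18.6 CPM in TAM_PP, against 25.5, 21.7 and 23.6 CPM in con_PP. The groups did not overlap in either part. The fall was 1.57-fold in the anterior part (log2 -0.65, SE 0.13, adjusted p = 0.00065) and 1.32-fold in the posterior part (log2 -0.40, SE 0.13, adjusted p = 0.031). Both calls were lost with the trend removed (log2 -0.20 and -0.18, adjusted p = 0.10 and 0.18), and the posterior call also without con_PP replicate 1, con_PP replicate 3, TAM_PP replicate 1 or TAM_PP replicate 3 (adjusted p = 0.12, 0.081, 0.11 and 0.055).

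Cdkn2d (p19), the shortest transcript of the set at 1.42 kb, stood at 6.61, 8.98 and 6.63 CPM in TAM_AP, against 7.23, 9.67 and 10.2 CPM in con_AP. The posterior values were 7.03, 8.57 and 8.95 CPM in TAM_PP, against 11.3, 7.78 and 9.24 CPM in con_PP. Treated and control libraries overlapped in both parts, with log2 fold changes of -0.29 (SE 0.17, adjusted p = 0.18) and -0.21 (SE 0.17, adjusted p = 0.38). Without TAM_AP replicate 2 the anterior difference passed the threshold (log2 -0.44, adjusted p = 0.049), and with the trend removed the signs turned (log2 0.17 and 0.04, adjusted p = 0.44 and 0.89).

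Cdkn1b (p27) stood at 70.5, 94.7 and 71.3 CPM in TAM_AP, against 75.9, 67.8 and 74.1 CPM in con_AP, with overlap, TAM_AP replicate 2 being the highest anterior library and con_AP replicate 2 the lowest. In the posterior part it stood at 67.4, 72.9 and 72.1 CPM in TAM_PP, against 63.3, 61.8 and 65.3 CPM in con_PP, without overlap. The log2 fold change was 0.12 (SE 0.10, adjusted p = 0.33) in the anterior and 0.16 (SE 0.10, adjusted p = 0.23) in the posterior part. Removal of the trend turned the anterior value to -0.29, which was called (adjusted p = 0.021), and the posterior value was -0.09 (adjusted p = 0.55). No direction is therefore given for Cdkn1b.

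Both pocket protein genes were higher under tamoxifen in both parts. Rbl1, which encodes p107, a partner of the repressive E2F factors and itself an E2F target, stood at 40.7, 51.6 and 43.5 CPM in TAM_AP, against 25.5, 31.2 and 22.4 CPM in con_AP. Its posterior levels were 42.2, 37.5 and 37.4 CPM in TAM_PP, against 27.3, 30.9 and 30.7 CPM in con_PP. All 6 tamoxifen libraries lay above all 6 control libraries. The rise was 1.72-fold in the anterior part (log2 0.78, SE 0.12, adjusted p = 5.6e-05) and 1.32-fold in the posterior part (log2 0.40, SE 0.12, adjusted p = 0.018). After removal of the trend it was 1.26-fold in the anterior part (adjusted p = 0.0042), and the posterior call was lost (log2 0.12, adjusted p = 0.32), as it was without con_PP replicate 1 or TAM_PP replicate 1 (adjusted p = 0.084 and 0.088).

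Rb1, the retinoblastoma gene, stood at 11.3, 14.7 and 11.6 CPM in TAM_AP, against 8.25, 8.0 and 8.08 CPM in con_AP. Posterior levels were 22.8, 19.9 and 16.5 CPM in TAM_PP, against 9.95, 12.8 and 11.5 CPM in con_PP. The groups did not overlap in either part. The rise was 1.54-fold in the anterior part (log2 0.62, SE 0.14, adjusted p = 0.0015) and 1.73-fold in the posterior part (log2 0.79, SE 0.14, adjusted p = 0.00098). After removal of the trend it was 1.44-fold in the posterior part (adjusted p = 0.0028) and lost its call in the anterior part (log2 0.19, adjusted p = 0.20). With the trend removed, the calls of higher RNA that remained were those of Rb1 in the posterior part, Ccnd2 and Rbl1 in the anterior part, and Cdk6 in both. Per kb, Rbl1 exceeded Rb1 3.47 ± 0.105 times in TAM_AP and 3.12 ± 0.556 times in con_AP, and 1.92 ± 0.219 times in TAM_PP and 2.50 ± 0.172 times in con_PP. These ratios were not tested, and the trend was not removed from them.

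**Figure D3:**
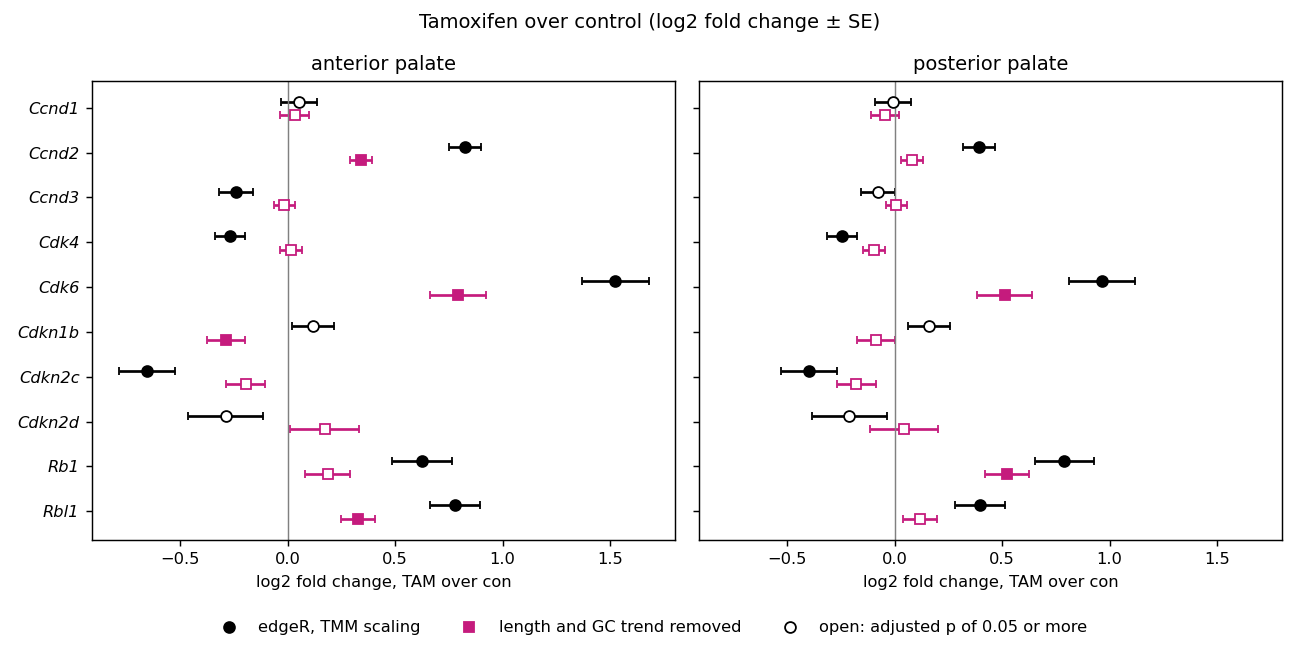
Log2 fold change of tamoxifen over control (horizontal axis, bars are SE) for each gene in the anterior and the posterior palate, from edgeR with TMM scaling (circles) and with the length and GC trend removed (squares). Filled symbols have an adjusted p under 0.05. Among the circles Cdk6 lies farthest to the right in both panels, and most squares lie closer to 0 than the circles.

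In count, 4 of the 10 genes rose (Ccnd2, Cdk6, Rb1, Rbl1) and 3 fell (Ccnd3, Cdk4, Cdkn2c) in the anterior part, where 25.6% of all genes tested rose and 24% fell. In the posterior part the same 4 rose and 2 fell (Cdk4, Cdkn2c), where 17.3% of all genes rose and 11.7% fell. The median log2 fold change over the 10 genes was 0.09 in the anterior and 0.08 in the posterior part, beside -0.02 and 0.02 over all genes tested. With the trend removed, 3 rose and 1 fell in the anterior part, where 16.1% of all genes rose and 16.5% fell, and 2 rose and 0 fell in the posterior part, where 7.84% rose and 10.3% fell. The genes called higher have transcripts of 4.66 to 11.5 kb, and those called lower of 2.05 to 3.86 kb. Markers of other cell types were called as well, and the shares of all genes given above are the background for their counts. Of 13 epithelial markers 5 were called higher and 1 lower in the anterior part, and 6 higher and 0 lower in the posterior part. Of 9 endothelial markers 5 were called higher and 3 lower in the anterior part, and 5 higher and 1 lower in the posterior part. Removal of the trend left 2 epithelial markers higher and 0 lower in each part, and 4 endothelial markers higher in each part, with 2 lower in the anterior and 0 in the posterior part. Of 10 macrophage and leukocyte markers 3 were higher and 1 lower in the anterior part, and 2 higher and 0 lower in the posterior part; with the trend removed 5 and 3 were higher and 0 lower in either. Of 11 neuronal and Schwann cell markers 4 were higher and 2 lower in the anterior part, and 4 higher and 0 lower in the posterior part; with the trend removed 3 were higher in each, with 1 and 0 lower. The macrophage markers summed to 68.4 to 96.7 CPM in TAM_AP and 71.4 to 81.5 CPM in con_AP, and 79.8 to 97.7 CPM in TAM_PP and 73.6 to 79.4 CPM in con_PP. The neuronal markers summed to 151 to 174 CPM in TAM_AP and 138 to 160 CPM in con_AP, and 195 to 246 CPM in TAM_PP and 164 to 176 CPM in con_PP. Summed, the epithelial markers reached 1397 to 1715 CPM in TAM_AP and 1280 to 1564 CPM in con_AP, and 904 to 1182 CPM in TAM_PP and 808 to 874 CPM in con_PP. The endothelial markers reached 571 to 619 CPM in TAM_AP and 533 to 578 CPM in con_AP, and 632 to 674 CPM in TAM_PP and 560 to 595 CPM in con_PP. The muscle markers summed to 987 to 1335 CPM in TAM_PP and 803 to 919 CPM in con_PP. In the anterior part they summed to 10.9 to 27.6 CPM in TAM_AP and 14.8 to 37.5 CPM in con_AP. For these summed lists, treated and control libraries overlapped only in the anterior part. Of 14 muscle markers 1 was higher and 4 lower in the anterior part, and 2 and 0 in the posterior. For 11 cartilage markers the counts were 3 and 2, and 1 and 0. For 9 mesenchyme markers they were 3 and 3, and 2 and 1. With the trend removed, the anterior counts were 0 and 1 (muscle), 2 and 1 (cartilage) and 2 and 1 (mesenchyme). The posterior counts were then 3 and 0, 0 and 0, and 1 and 1. The part of all these cell types in these results was not tested, and in whole tissue fewer cells of a type and less RNA per cell cannot be told apart.

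The interaction of region and tamoxifen asked whether the change under treatment differed between the parts. None of the 10 genes was called by edgeR, and 0% of all genes tested, with 2110 genes, 3 of the 10 among them, at an unadjusted p under 0.05. Ccnd2 had the smallest p of the 10 (log2 difference of anterior minus posterior change 0.44, SE 0.10, unadjusted p = 0.00073, adjusted p = 0.18 by edgeR). Cdk6 (0.56, SE 0.22, adjusted p = 0.32) and Rbl1 (0.38, SE 0.16, adjusted p = 0.35) were the others at an unadjusted p under 0.05. DESeq2 called 96 genes higher and 83 lower, and Ccnd2 was the 1 member among them (log2 0.45, adjusted p = 0.0047), whereas limma-voom called 0 genes. Removal of the trend lowered the differences to 0.26 for Ccnd2, 0.28 for Cdk6 and 0.21 for Rbl1 (edgeR adjusted p = 0.23, 0.61 and 0.52). Across genes, the interaction itself followed transcript length and GC content, with Spearman correlations of 0.46 and -0.53 over 12685 genes.

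The regional comparison set the anterior against the posterior palate. Across 12685 genes, the regional log2 values in controls followed transcript length and GC content, with Spearman correlations of -0.36 and 0.24. Under tamoxifen these correlations were 0.03 and -0.23. Ccnd1 was lower in the anterior part, whose libraries had 114 to 146 CPM under tamoxifen and 119 to 125 CPM in controls, while no posterior library had under 259 CPM. The difference was 2.17-fold under tamoxifen (log2 -1.11, SE 0.08, adjusted p = 4.3e-08) and 2.26-fold in controls (log2 -1.18, SE 0.08, adjusted p = 3.0e-08). It was the largest regional difference among the 10 genes, and with the trend removed it was 2.09-fold and 2.20-fold. Rb1 was likewise lower in the anterior part, 1.58-fold under tamoxifen (log2 -0.66, SE 0.14, adjusted p = 0.0021) and 1.41-fold in controls (log2 -0.49, SE 0.14, adjusted p = 0.017). With the trend removed the log2 values were -0.71 (adjusted p = 5.5e-05) and -0.37 (adjusted p = 0.016). The call of Rb1 in controls was lost without con_AP replicate 3 or con_PP replicate 2 (adjusted p = 0.050 and 0.093).

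Ccnd2 was 1.31-fold higher in the anterior part under tamoxifen (log2 0.38, SE 0.07, adjusted p = 0.0012; 0.38 with the trend removed, adjusted p = 2.0e-05) and gave no call in controls (log2 -0.05, SE 0.07, adjusted p = 0.66; 0.13 with the trend removed, adjusted p = 0.079). Ccnd3 was 1.27-fold lower in the anterior part under tamoxifen (log2 -0.35, SE 0.08, adjusted p = 0.0051; -0.22 with the trend removed, adjusted p = 0.0031), and its log2 value of -0.19 in controls gave no call (adjusted p = 0.11). That control value passed the threshold without TAM_AP replicate 2 or TAM_PP replicate 1 (adjusted p = 0.039 and 0.044) and with the trend removed (log2 -0.20, adjusted p = 0.0062). For neither cyclin was the regional difference under tamoxifen shown to differ from that in controls by edgeR. Cdk4, Cdk6, Cdkn1b, Cdkn2c, Cdkn2d and Rbl1 gave no regional call, with log2 values of -0.17 to 0.28 under tamoxifen and -0.28 to 0.19 in controls. Cdkn1b in controls was called higher in the anterior part with the trend removed (log2 0.31, adjusted p = 0.019), and Rbl1 lower without con_AP replicate 2 (log2 -0.34, adjusted p = 0.046).

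**Figure D4:**
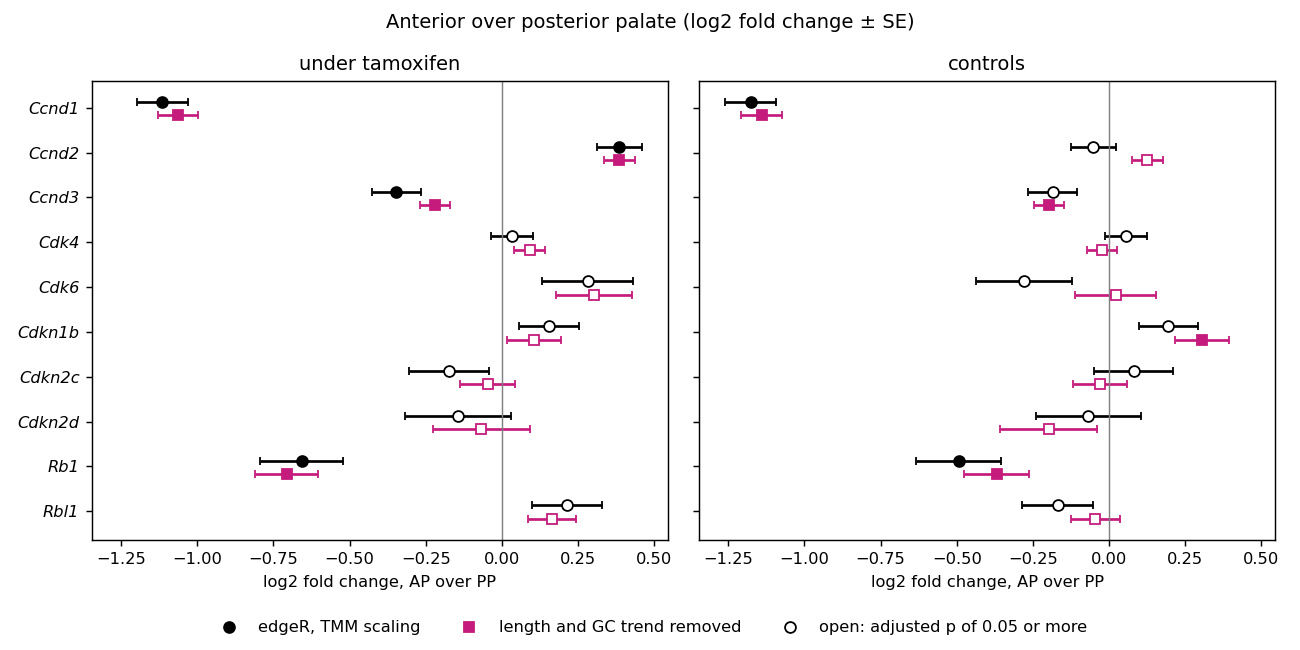
Log2 fold change of anterior over posterior palate (horizontal axis, bars are SE) for each gene under tamoxifen and in controls, with TMM scaling (circles) and with the length and GC trend removed (squares). Filled symbols have an adjusted p under 0.05. Ccnd1 lies farthest to the left in both panels, at -1.11 under tamoxifen and -1.18 in controls; Rb1 is also left of 0 and called in both, and Ccnd3 is so in both with the trend removed.

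Of the 10 genes, 1 was called higher and 3 lower in the anterior part under tamoxifen, where the shares among all genes tested were 7.6% higher and 10.2% lower. In controls 0 were higher and 2 lower by edgeR, where the shares among all genes tested were 10.2% higher and 13.1% lower, and the smallest unadjusted p of a gene higher in the anterior part was 0.063 (Cdkn1b). The median log2 value was -0.06 under tamoxifen and -0.12 in controls, against 0.02 over all genes in both. Each regional comparison shares its libraries with the treatment comparisons. Markers of other tissues divided the parts as well: the 14 skeletal muscle markers summed to 10.9 to 27.6 CPM in TAM_AP and 987 to 1335 CPM in TAM_PP, and to 14.8 to 37.5 CPM in con_AP and 803 to 919 CPM in con_PP. The 11 cartilage markers found summed to 770 to 894 CPM in TAM_AP and 2167 to 3075 CPM in TAM_PP, and to 865 to 933 CPM in con_AP and 2873 to 3161 CPM in con_PP. In the anterior part 13 of 14 muscle markers were called lower both under tamoxifen and in controls, and 11 and 10 of the 11 cartilage markers. The master regulator gene of muscle, Myod1, averaged 0.182 CPM in TAM_AP and 47.6 CPM in TAM_PP, and 0.853 CPM in con_AP and 33.9 CPM in con_PP. Of the 13 epithelial markers 10 were called higher in the anterior part under tamoxifen and 9 in controls, and 0 lower; their sums are given above. Of the 11 neuronal and Schwann cell markers 0 were higher and 3 lower under tamoxifen, and 1 higher and 3 lower in controls. The part of muscle, cartilage, epithelial and nerve cells in the regional differences of the 10 genes was not tested.

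Ranked by CPM per kb of transcript, Cdk4 came first in every group (256 ± 2.55 in TAM_AP, 308 ± 24.9 in con_AP, 250 ± 6.55 in TAM_PP and 297 ± 4.43 in con_PP), followed by Ccnd2. Ccnd3 stood above Ccnd1 in both anterior groups, without overlap, whereas the ranges of Ccnd1 and Ccnd3 overlapped in both posterior groups. Cdkn1b followed the D cyclins in each group, at 13.9 to 17.3 CPM per kb on average, and was the most abundant of the 3 inhibitors. Below it, Rbl1 stood above Cdkn2c in TAM_AP without overlap and next to it with overlap in TAM_PP, while in con_AP and con_PP Rbl1 stood under both Cdkn2c and Cdkn2d, with overlap with Cdkn2d. The order of genes was not tested, and the levels behind it contain the length trend. Rb1 and Cdk6 came last in every group, Cdk6 at 1.91 ± 0.184 CPM per kb in TAM_AP and 0.664 ± 0.0911 in con_AP, and at 1.57 ± 0.233 in TAM_PP and 0.805 ± 0.163 in con_PP.

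Other G1 and G1/S regulators were followed as a list of 28 genes, of which 27 were tested. In the anterior part 9 rose and 7 fell under tamoxifen, and in the posterior part 3 rose and 4 fell, with median log2 fold changes of -0.01 and 0.02. With the trend removed the counts were 8 and 1 in the anterior part, and 3 and 2 in the posterior part, and the shares of all genes given above hold as background here too. Gsk3b, a kinase that marks cyclin D1 for export and degradation, rose 1.83-fold in the anterior part (adjusted p = 5.5e-06) and 1.48-fold in the posterior part (adjusted p = 0.0010). Without the trend its log2 values were 0.26 (adjusted p = 0.0044) and 0.17 (adjusted p = 0.060). Skp2, which directs p27 to degradation, rose 1.51-fold and 1.27-fold (adjusted p = 1.1e-05 and 0.0033), and both calls were lost without the trend (adjusted p = 0.44 and 0.91). Rbl2, the third pocket protein gene, stood at 29.2 ± 2.29 CPM in TAM_AP and 18.1 ± 2.06 CPM in con_AP (SD, n = 3 each), a 1.61-fold rise (adjusted p = 2.6e-05) that was called without the trend as well (log2 0.33, adjusted p = 0.0025). In the posterior part Rbl2 stood at 29.7 ± 1.17 CPM in TAM_PP and 23.7 ± 0.536 CPM in con_PP. Fbxo31, an F-box protein linked to cyclin D1 degradation, fell 1.29-fold in the posterior part (adjusted p = 0.0089, and log2 -0.30 without the trend, adjusted p = 0.0020). In the anterior part Fbxo31 was lower under tamoxifen too, at 47.2 ± 3.63 CPM in TAM_AP and 74.3 ± 7.01 CPM in con_AP.

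By region under tamoxifen, the anterior part had more RNA of 3 of these genes and less of 3. In controls it had more of 2 and less of 7. Among all genes tested, 7.6% were higher and 10.2% lower under tamoxifen, and 10.2% and 13.1% in controls. With the trend removed the counts were 3 and 3 under tamoxifen, and 3 and 7 in controls. The shares among all genes were then 14% and 11%, and 14.5% and 12.6%. Cdkn1a (p21), a broad inhibitor of cyclin kinases, averaged 10.01 CPM in TAM_AP and 35.8 CPM in TAM_PP, a 3.58-fold difference (adjusted p = 1.6e-08), and 13.1 CPM in con_AP and 29.5 CPM in con_PP, a 2.25-fold difference (adjusted p = 3.0e-06). Cdkn1c (p57), an imprinted inhibitor gene, averaged 1424 CPM in TAM_AP and 2012 CPM in TAM_PP (adjusted p = 0.0015). In controls it averaged 1616 CPM in con_AP and 1987 CPM in con_PP. Mycn, a Myc family gene, was higher in the anterior part, 1.41-fold under tamoxifen and 1.52-fold in controls (adjusted p = 0.0027 and 0.00053). Cdkn2b averaged 0.638 CPM in con_AP and 2.09 CPM in con_PP (adjusted p = 0.0023). Under tamoxifen it averaged 0.332 CPM in TAM_AP and 0.886 CPM in TAM_PP. With the trend removed, the log2 values were -1.78 and -1.25 for Cdkn1a under tamoxifen and in controls, -0.37 for Cdkn1c under tamoxifen, 0.59 and 0.55 for Mycn, and -1.83 for Cdkn2b in controls, all with a call. The marker values given above stand beside these regional differences too.

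Of 22 E2F target genes of DNA replication, 4 rose and 4 fell under tamoxifen in the anterior part, and 1 rose and 4 fell in the posterior part, with median log2 fold changes of -0.02 and -0.12. With the trend removed 2 rose and 7 fell in the anterior part, and 0 rose and 9 fell in the posterior part. Among all genes the shares were 25.6% higher and 24% lower in the anterior and 17.3% and 11.7% in the posterior part, and with the trend removed 16.1% and 16.5%, and 7.84% and 10.3%. Tk1, thymidine kinase, fell 1.38-fold and 1.33-fold (adjusted p = 0.00017 and 0.0018) and kept both calls without the trend (adjusted p = 0.0023 each). Pola1, a DNA polymerase subunit, rose 1.72-fold and 1.39-fold (adjusted p = 1.9e-05 and 0.0036), with log2 values of 0.26 and 0.17 without the trend (adjusted p = 0.0095 and 0.12). The summed level of the 22 genes was 2552 to 2658 CPM in TAM_AP and 2510 to 2611 CPM in con_AP, and 2351 to 2526 CPM in TAM_PP and 2492 to 2609 CPM in con_PP, so treated and control libraries overlapped in both parts. By region, 2 were called higher in the anterior part under tamoxifen (Rrm2 and Pcna, adjusted p = 0.025 and 0.042) and 0 lower, and in controls 0 were called (Mcm7 had the smallest adjusted p, 0.065). With the trend removed 3 were higher under tamoxifen and 1 in controls, and 0 were lower in either. The regional shares among all genes given above hold as background here too.

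Likeness of pattern was measured among 11507 genes with a mean of at least 5 CPM as the root mean square distance between log2 values centred on each gene's mean, over the 12 libraries. Nearest to Ccnd1 were Nkd2 (0.08), Tgfbi (0.10) and Rhoj (0.12), where the spread of Ccnd1 itself was 0.58. Nearest to Ccnd2 were Dixdc1 (0.05), Col4a3bp (0.07) and Fryl (0.07), where the spread of Ccnd2 was 0.34. Nearest to Cdkn1b were Rnpc3, Ncald and Ube2k (0.07 to 0.08). Its own spread was 0.15, so these distances were a larger part of the spread than for Ccnd1 and Ccnd2. Dixdc1 averaged 74.7 CPM in TAM_AP and 42.1 CPM in con_AP, and 54.9 CPM in TAM_PP and 42.2 CPM in con_PP, the same order of groups as Ccnd2 with con_AP and con_PP close together. The transcripts of Dixdc1, Col4a3bp and Fryl have 6.45, 5.29 and 11.3 kb, so long transcripts, on which the trend acts, are shared as well.

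Some counts can include reads of overlapping genes, since the strand setting of the counting is not given. In GENCODE M21, 23.4% of the exonic bases of Ccnd1 overlap those of LTO1 (Oraov1 in the count files) and 19.7% of those of Cdk4 overlap Tspan31, each on the opposite strand. Oraov1 averaged 20.7 CPM in TAM_AP and 22.5 CPM in con_AP, and 19.9 CPM in TAM_PP and 21.7 CPM in con_PP. Tspan31 averaged 110 CPM in TAM_AP and 124 CPM in con_AP, and 122 CPM in TAM_PP and 127 CPM in con_PP. Neither was called in any of the 5 comparisons. Lpar6 overlaps 6.78% and Rcbtb2 8.11% of the exonic bases of Rb1, whose own level is low, and Rcbtb2 averaged 106 CPM in TAM_AP and 91.1 CPM in con_AP (adjusted p = 0.041). By edgeR, Rcbtb2 had a posterior log2 fold change under tamoxifen of 0.03 (adjusted p = 0.80). Its regional log2 values were 0.10 under tamoxifen and -0.08 in controls (adjusted p = 0.46 and 0.52). Lpar6 was not called in any comparison. Reads from such a neighbour cannot be told apart from those of Rb1 there.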

How the data were processed

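Gene counts of 12 mouse palate RNA libraries (3 in each of 4 groups) were used as deposited. The values are whole-number counts per gene symbol that the authors did not normalize; HISAT2, StringTie and mm9 are named, without roles, per the submitters' processing notes, and how reads were assigned to genes and strands is not given in the sources used here. Of the counts from 1 to 100, 57.1% to 60.1% were even per library.

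Genes were filtered with filterByExpr (minimum count 10) and fitted with edgeR 4.0.16 (R 4.3.3) by the quasi-likelihood test, with TMM scaling, 1 mean per group and all 12 libraries in 1 fit. P-values were adjusted by Benjamini-Hochberg over the 15958 genes tested. The 95% intervals use 8 residual degrees of freedom. The alternatives were DESeq2 1.42.0, limma-voom (limma 3.58.1), upper-quartile scaling, no filter, a replicate block, the libraries of 1 comparison alone, each library left out, and removal of a trend with length and GC by splines (4 degrees of freedom each) fitted per library on genes with a mean log2 CPM above 1. Lengths come from the longest GENCODE M21 transcript of a symbol; 23348 symbols had a direct match and 669 one through an older name. Steps were tested on simulated data in which the anterior treatment difference carried no length or GC trend. The simulation therefore cannot show how trend removal behaves where the trend follows treatment.

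The 10 genes and all lists were chosen with earlier results of these data known. All 10 are named; of the other G1 regulators and the E2F targets, up to 3 genes with the smallest p per comparison are named, and 3 genes nearest in pattern for Ccnd1, Ccnd2 and Cdkn1b. Same-numbered libraries of different groups deviated together, with a correlation over 0.1, in 2 of 18 pairs, so the numbers were not taken to pair the libraries. Both pairs set TAM_AP against TAM_PP (0.147 for replicate 1 and 0.137 for replicate 3). Replicate 2 had -0.015 there, and con_AP against con_PP had -0.037 to 0.079. A differently numbered pair, con_AP replicate 1 and TAM_AP replicate 2, had 0.129. A pairing of the regions within a treatment therefore stays possible. Replicate numbers are those of the sample titles; the numbers in the file headers partly differ from them, and the pairing check and the block use the titles' numbers only.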

Additional observations from a re-analysis of the deposited data

How the results depend on the processing

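Removing the length and GC trend was the alternative that changed the counts of the 10 genes most, and since the trend follows treatment, its cause was not tested. With it, the count lower under tamoxifen was 1 in the anterior part, and the posterior counts were 2 higher and 0 lower. In controls 1 gene was higher in the anterior part. These counts were the same when a replicate block was added. Trend removal also left 3 genes lower in the anterior part of controls, beside 2 in the main fit. Among all genes it called 16.5% lower under tamoxifen in the anterior part, and 7.84% higher and 10.3% lower in the posterior part. In controls it called 14.5% higher and 12.6% lower in the anterior part. The replicate block alone left 4 higher and 3 lower in the anterior part and 4 higher and 2 lower in the posterior part and changed no call of the 10 genes. DESeq2 called 1 gene higher in the interaction. Signs turned under trend removal, given first without and then with the block. For anterior tamoxifen the log2 values were 0.017 and 0.017 for Cdk4, -0.288 and -0.287 for Cdkn1b, and 0.172 and 0.170 for Cdkn2d. For posterior tamoxifen they were 0.0064 and 0.0063 for Ccnd3, -0.087 and -0.089 for Cdkn1b, and 0.042 and 0.030 for Cdkn2d. In the interaction they were 0.115 and 0.114 for Cdk4 and 0.130 and 0.140 for Cdkn2d. For anterior over posterior palate in controls they were 0.125 and 0.125 for Ccnd2, -0.023 and -0.023 for Cdk4, 0.021 and 0.031 for Cdk6, and -0.030 and -0.034 for Cdkn2c.

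With each library left out in turn, the anterior part gave 4 to 4 genes higher and 2 to 3 lower, the posterior part 3 to 4 higher and 0 to 2 lower, and the control regions 1 to 3 lower. Of the 16162 to 16199 genes tested in these fits, 3518 to 4181 were higher and 3035 to 3780 lower in the anterior part. In the posterior part 1784 to 2960 were higher and 930 to 2675 lower. For the control regions 1010 to 1655 were higher and 1473 to 2687 lower. Left-out values crossed 0 for genes without a call: -0.063 to 0.131 (Ccnd1) and -0.029 to 0.193 (Cdkn1b) for anterior tamoxifen, -0.032 to 0.018 (Ccnd1) for posterior tamoxifen, -0.031 to 0.163 (Ccnd1), -0.042 to 0.046 (Cdk4), -0.163 to 0.053 (Cdkn1b) and -0.228 to 0.044 (Cdkn2d) for the interaction, and -0.129 to 0.0062 (Ccnd2), -0.013 to 0.065 (Cdk4), -0.090 to 0.140 (Cdkn2c) and -0.189 to 0.083 (Cdkn2d) for the control regions.

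Over all genes, removing the trend (without and with the block) gave 2554 and 2477 higher in the anterior part, beside 4089, with 2539 lower under the block, beside 3835. It gave 1243 and 1179 higher in the posterior part, beside 2762, and 2215 and 2068 higher in the anterior part under tamoxifen, beside 1213. In the interaction 1 gene was lower with the block and trend removal combined, and 0 with trend removal alone. Posterior calls fell to 1784 higher and 930 lower without con_PP replicate 1, to 1796 higher without TAM_PP replicate 1 and to 978 lower without con_PP replicate 3, beside 1863 lower, and calls higher in the anterior part of controls to 1010 without con_PP replicate 2, beside 1634. Interaction calls without a library were at most 6.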

Other observations

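The E2F factors, which the pocket proteins bind, were looked at after their values were seen. E2f1, an activating factor, averaged 59.3 ± 3.72 CPM in TAM_AP and 91.4 ± 11.8 CPM in con_AP, and 62.2 ± 7.13 CPM in TAM_PP and 80.9 ± 9.46 CPM in con_PP (SD, n = 3 each). It fell 1.54-fold in the anterior part (edgeR adjusted p = 0.00021) and 1.30-fold in the posterior part (adjusted p = 0.017). E2f4, a factor known for repression in G1, fell 1.29-fold in the anterior part (adjusted p = 0.0050). E2f3, E2f6, E2f7 and E2f8 rose there by log2 values of 0.39, 0.26, 0.52 and 0.36 (adjusted p = 0.00053, 0.0038, 0.00017 and 0.0077), while E2f2 and E2f5 gave no call. In the posterior part E2f1 was the 1 factor of 8 called. Among all genes tested, 25.6% were called higher and 24% lower in the anterior part, and 17.3% and 11.7% in the posterior part. With the trend removed these shares were 16.1% and 16.5%, and 7.84% and 10.3%. With the length and GC trend removed, the anterior calls that remained were E2f6, E2f7 and E2f8 (log2 0.28, 0.21 and 0.31, adjusted p = 0.0014, 0.033 and 0.014); E2f1 had -0.18 and -0.17 in the anterior and posterior part (adjusted p = 0.064 and 0.10), and E2f4 turned to 0.04 in the anterior part (adjusted p = 0.67).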
